A study of Homo sapiens with 6 samples.

Results

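The proteasome subunit genes were examined in the ovarian cancer line HEY after knockdown of PQBP1, a nuclear protein that binds polyglutamine proteins and takes part in splicing. The members were the rows of the gene table whose symbol is PSM, a letter from A to G and a number, with pseudogenes and antisense genes left out, and 47 of the 32679 genes in the table met this rule. The cells were stable lines made with lentivirus and selected with puromycin. The 3 control samples carried a control hairpin (shNC), and no doxycycline is given for them. The 3 knockdown samples carried a hairpin against PQBP1 (shPQBP1) and received doxycycline at 1 µg per ml, and all 6 samples were labelled day 3. As labelled, the hairpin and doxycycline therefore differed together between the groups, and their parts in a difference cannot be told apart. Poly(A) RNA was sequenced, and each value is an FPKM, a fragment count divided by transcript length and scaled to the sample's mapped fragments, so that levels can be compared between genes of different length. The samples were biological triplicates by the series' design, and values below are means ± SD over 3 samples unless the samples are given one by one.

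The proteasome is the protease that degrades proteins tagged with ubiquitin. Its 20S core is a barrel of outer rings of alpha subunits (PSMA genes) and inner rings of beta subunits (PSMB genes), and PSMB5, PSMB6 and PSMB7 carry the proteolytic sites. The 19S regulatory particle caps the core with a ring of ATPases that unfold substrates (PSMC genes) and with non-ATPase subunits that bind and deubiquitinate them (PSMD genes). Other caps are the PA28 activators (PSME1 to PSME3) and PA200 (PSME4), and PSMF1 encodes the inhibitor PI31. Interferon induces PSMB8, PSMB9 and PSMB10, which replace the catalytic subunits in the immunoproteasome. PSMG genes and PSMD5, PSMD9 and PSMD10 encode assembly chaperones.

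The targeted gene was checked first. PQBP1 (ENSG00000102103) had 7.18, 6.67 and 6.93 FPKM in the shNC samples and 1.68, 1.72 and 1.44 in the shPQBP1 samples, and it fell by 2.04 on the log2 scale (adjusted p = 0.00154, limma). KRT8, KRT18 and KRT7, keratins of epithelial cells, and PAX8, a transcription factor of the Müllerian lineage, were above 12 FPKM in all 6 samples, whereas CDH1, the epithelial cadherin, and MUC16, the CA125 antigen, were at or below 0.06. EPCAM and KRT19, further epithelial markers, were at or below 2.10 FPKM. VIM, CDH2 and FN1, mesenchymal markers, were all present; FN1 (fibronectin) rose from 43.4 ± 1.06 to 143.9 ± 14.5 FPKM (adjusted p = 0.00176, limma), and VIM was at 1174 ± 58.1 and 1296 ± 40.5. PAX8 was higher in all 3 knockdown samples (14.3 ± 1.76 and 20.8 ± 2.96 FPKM, adjusted p = 0.102). WT1, another ovarian carcinoma marker, was too low to be tested and was lower in all 3. It had 0.63, 0.71 and 0.68 FPKM in shNC and 0.31, 0.34 and 0.45 in shPQBP1 samples. Of the markers of other cell types, the leukocyte gene PTPRC was listed at 0 in all 6 samples, and the endothelial gene CDH5, the only tested gene of that list, was at 2.52 ± 0.426 and 3.43 ± 0.289 FPKM (adjusted p = 0.151). The part of these shifts in the values of the members was not tested. The number of reads is unknown, since FPKM values carry no counts. shNC sample 1 stood apart, with the highest total FPKM (318484, against 278286 to 304196) and the highest value of the 6 samples in 25 of the 44 tested members.

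Proteasome genes are driven together by NFE2L1 (NRF1), a transcription factor that binds antioxidant response elements. The letters TGACNNNGC of such an element, on either strand, were found in the promoter windows of 15 of the 41 members with a RefSeq window (250 bases before to 50 after the start, GRCh38.p14), which is 30% of their 50 windows, against 13.3% of all 35116 windows. The letters GAAANNGAA, the core of an interferon-stimulated response element, were in windows of 8 of the 41 members (16% of windows, against 8.11% of all windows). Matches of the motifs may overlap each other, and a match is a description of the sequence only. Among the 14 tested members with TGACNNNGC, 8 were below 0 and the median log2 fold change was -0.08, against 15 of 24 and -0.10 for those without it. The windows of a 19S subunit, PSMD3, and of a constitutive 20S beta subunit, PSMB3, are shown because both genes lie on chromosome 17, whose genes were lower in the knockdown samples (described further on), and each holds 1 such match. They are the 250 bases before the start on the plus strand, from chr17:39980557-39980806 for PSMD3 and chr17:38752491-38752740 for PSMB3, with the match in capitals. It begins 37 bases before the start of PSMD3 and 104 bases before that of PSMB3.
PSMD3: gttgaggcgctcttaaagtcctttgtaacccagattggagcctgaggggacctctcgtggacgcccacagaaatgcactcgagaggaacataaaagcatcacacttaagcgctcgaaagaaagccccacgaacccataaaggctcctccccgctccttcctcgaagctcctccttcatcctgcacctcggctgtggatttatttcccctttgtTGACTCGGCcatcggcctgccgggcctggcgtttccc
PSMB3: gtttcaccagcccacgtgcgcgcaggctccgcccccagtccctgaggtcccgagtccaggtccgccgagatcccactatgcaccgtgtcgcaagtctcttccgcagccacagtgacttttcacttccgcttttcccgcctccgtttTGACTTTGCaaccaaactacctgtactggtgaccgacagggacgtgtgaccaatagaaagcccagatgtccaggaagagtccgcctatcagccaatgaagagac

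The levels of the members spanned a wide range. The member with the highest level was PSMD2, the large scaffold subunit of the 19S base, with 244 ± 15.7 FPKM in shNC and 219.9 ± 11.1 in shPQBP1 cells. PSMB7, the trypsin-like catalytic subunit, followed with 173.5 ± 22.3 and 154.1 ± 4.14 FPKM. PSMA7 of the alpha ring (128.5 ± 14.0 and 112.9 ± 5.01) and PSMC3 of the ATPase ring (109.2 ± 16.4 and 96.3 ± 4.21) were next, and the SDs of these genes overlapped in the shNC samples. The lowest members of the same rings were PSMA4 (19.7 ± 0.817 and 18.6 ± 2.68), PSMB2 (34.9 ± 2.36 and 32.4 ± 1.54), PSMC6 (13.1 ± 3.44 and 15.3 ± 1.60) and, among the 19S non-ATPases, PSMD11 (11.9 ± 1.246 and 9.25 ± 0.159). Of the assembly chaperones, PSMD5 had the highest level of those acting on the base (25.02 ± 1.31 and 26.6 ± 0.225) and PSMD9 the lowest (3.81 ± 0.481 and 3.32 ± 0.286), and PSMG2 (18.99 ± 1.34 and 19.6 ± 0.740) stood highest of those acting on the core. The 3 members with a mean below 1 FPKM were not tested. They were PSMG4, a core chaperone, with 0.48, 0.45 and 0.48 FPKM in shNC and 0.58, 0.60 and 0.67 in shPQBP1 samples; PSMB9, given below; and PSMB11, the thymus-specific beta subunit, with 0.13 FPKM or less in each sample.

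**Figure D1:**
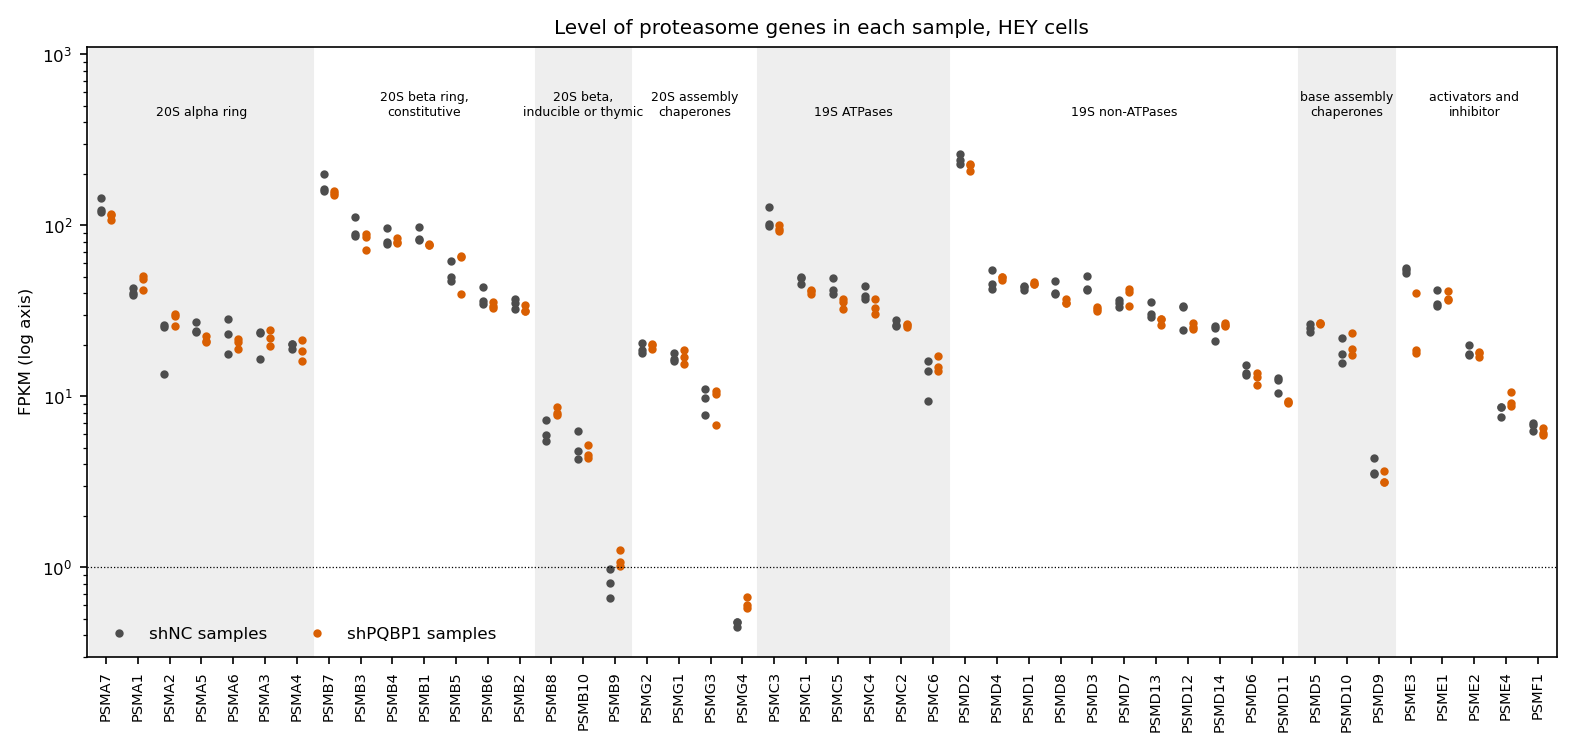
FPKM of the proteasome genes (log axis) in each sample, with 3 shNC samples in grey and 3 shPQBP1 samples in orange, ordered by sub-complex (shaded bands) and by mean level; the dotted line is the filter at 1 FPKM, and PSMB11, at 0.13 or below, is not drawn. PSMD2 sits highest, PSMB9 and PSMG4 sit lowest, and the samples of PSME3 are spread most within the shPQBP1 group.

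To find which proteasome genes differed upon PQBP1 knockdown, the groups were compared on log2(FPKM + 0.1) with limma across the 11413 genes with a mean of at least 1 FPKM, and 44 of the 47 members were among them. On this scale the change of a gene near 0 FPKM comes out too small. Under Benjamini-Hochberg adjustment over all tested genes, 0 members were higher and 0 were lower at an adjusted p under 0.05, where 1.73% of all tested genes were higher and 1.18% were lower. By unadjusted p under 0.05, 7 members (15.9%) were lower, against a background of 11.7% of all tested genes, and 1 member (2.27%) was higher, against 11.9%. The 7 were PSMD3, PSME3, PSMD11, PSMC1, PSMC5, PSMA5 and PSMD8, and the 1 was PSMB8. The study's own limits, a change of more than 2-fold at an unadjusted p under 0.05, were met by 1 member, PSME3, and by 1.52% of all tested genes. All knockdown samples lay below all controls in 11 members (25%, against 17.1% of all tested genes) and above them in 5 (11.4%, against 17.3%).

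The differences of most members were small. The median log2 fold change of the 44 members was -0.10, with 28 below 0 and 16 above, against a median of 0.02 over all tested genes. The change was under 1.2-fold in 38 members (86.4%), against 59.0% of all tested genes. The members also varied less within a group than other genes did, with a median coefficient of variation of 10.6% in shNC and 5.17% in shPQBP1 samples, against 12.8% and 8.21% over all tested genes. The tested members had a median level of 28.8 FPKM, against 5.54 over all tested genes, and neither contrast was matched for level. Summed over the 47 members, the FPKM was 2093, 1811 and 1870 in the shNC samples and 1737, 1789 and 1769 in the shPQBP1 samples. The groups did not overlap in this sum, and shNC sample 1 was the highest of the 6. The total FPKM did not overlap either, with 318484, 294970 and 304196 in shNC and 282734, 287423 and 278286 in shPQBP1 samples. As a share of that total the members overlapped between the groups, at 0.657%, 0.614% and 0.615% against 0.614%, 0.622% and 0.636%. Without shNC sample 1 the median of the members was -0.06.

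**Figure D2:**
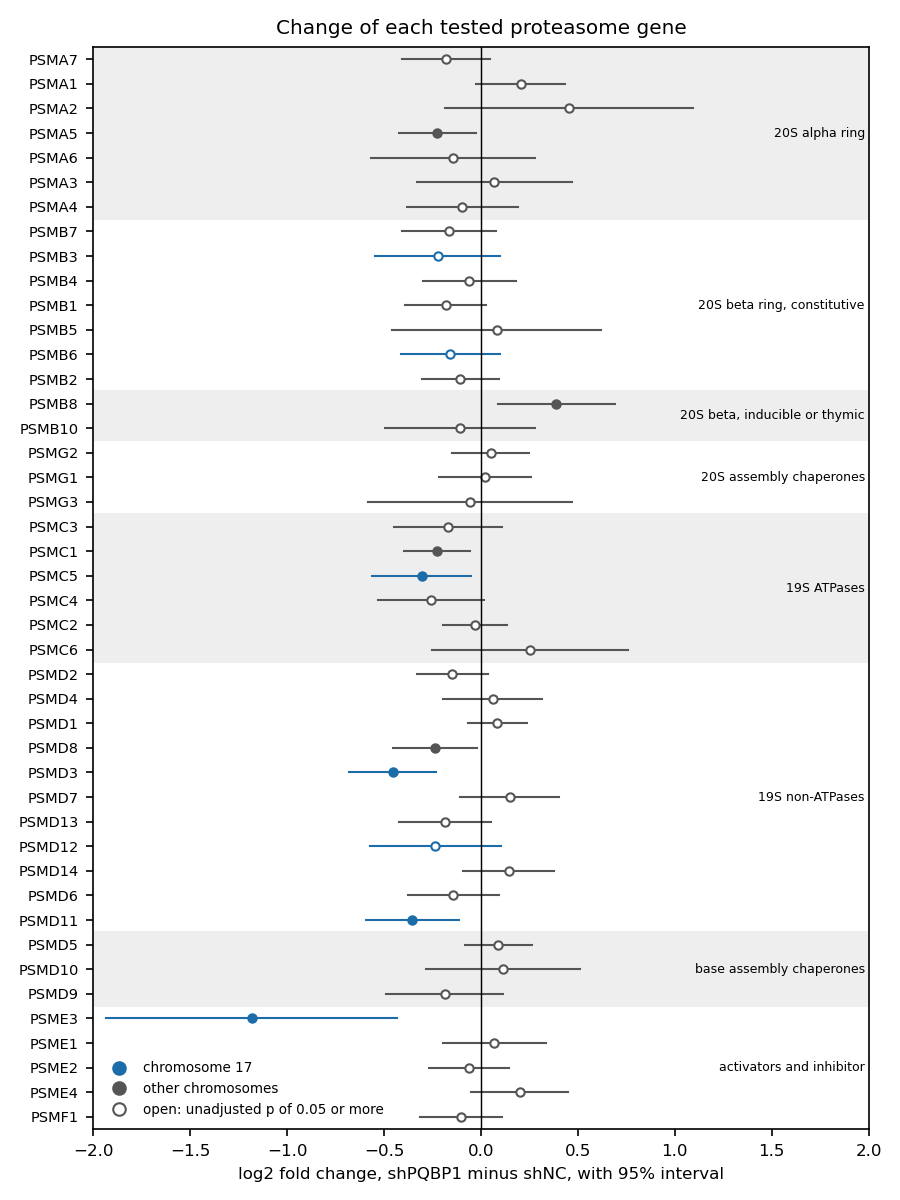
Log2 fold change (shPQBP1 minus shNC, horizontal axis) of the 44 tested proteasome genes with its 95% interval from limma, ordered by sub-complex; filled points have an unadjusted p under 0.05 and blue marks genes on chromosome 17. PSME3 lies far to the left at -1.18 with the widest interval below 0, and the 7 blue genes all lie left of 0.

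The regulatory particle held 5 of the 7 lower members. At an unadjusted p under 0.05, 27.3% of its non-ATPase genes and 33.3% of its ATPase genes were lower, against 11.7% of all tested genes. Of the 5, PSMD3, PSMD11 and PSMC5 lie on chromosome 17, where 33.4% of the other genes were lower (described further on). PSMD3, a scaffold subunit of the 19S lid, had 50.11, 41.88 and 42.27 FPKM in shNC and 31.58, 33.32 and 32.55 in shPQBP1 samples. All 3 knockdown samples lay well below the controls and close to each other, and the log2 fold change was -0.46 (SE 0.09, unadjusted p = 0.00225, adjusted p = 0.0568, limma). PSMD11, another lid subunit, had 12.72, 10.46 and 12.50 FPKM in shNC and 9.13, 9.19 and 9.43 in shPQBP1 samples, a log2 fold change of -0.35 (SE 0.10, adjusted p = 0.112). PSMD8, also of the lid, had 46.96, 40.03 and 39.72 against 35.14, 36.85 and 35.18 FPKM (log2 fold change -0.24, adjusted p = 0.182). In both genes the groups did not overlap. PSMD12, a lid subunit next to these, had 24.35, 33.88 and 33.17 against 24.71, 25.30 and 26.75 FPKM, so that shNC sample 1 lay with the knockdown samples, and its log2 fold change was -0.24 (SE 0.14, adjusted p = 0.335). The remaining non-ATPase subunits were between -0.19 (PSMD13) and 0.15 (PSMD7) on the log2 scale, PSMD2 among them at -0.15 (adjusted p = 0.280).

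Among the 6 ATPases, PSMC1 and PSMC5 were lower at an unadjusted p under 0.05 (33.3%, against 11.7% of all tested genes). PSMC1 had 49.45, 45.16 and 48.86 FPKM in shNC and 41.10, 41.67 and 39.54 in shPQBP1 samples (log2 fold change -0.23, SE 0.07, adjusted p = 0.132). PSMC5 had 49.05, 39.45 and 41.81 against 32.47, 36.81 and 35.71 FPKM (log2 fold change -0.31, SE 0.11, adjusted p = 0.158). The groups did not overlap in either gene. PSMC4 was at -0.26 (adjusted p = 0.227), with 1 knockdown sample inside the range of the controls. PSMC6 was the only ATPase above 0, at 0.25 (SE 0.21, adjusted p = 0.474), where shNC sample 1 had 9.34 FPKM and the other 5 samples had 14.01 to 17.12. The sum over the 6 ATPases was 306.2, 263.6 and 270.2 FPKM in shNC and 236.4, 256.4 and 247 in shPQBP1 samples, and the sum over the 11 non-ATPases was 568.3 ± 24 and 523.5 ± 18.9.

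In the 20S core, 1 of the 14 constitutive alpha and beta genes was lower at an unadjusted p under 0.05, and none was higher. The share lower was 14.3% in the alpha ring and 0% in the constitutive beta ring. Of all tested genes, 11.7% were lower and 11.9% higher. The lower core gene was PSMA5 of the alpha ring, with 26.99, 24.19 and 23.82 FPKM in shNC and 20.89, 22.34 and 20.85 in shPQBP1 samples (log2 fold change -0.22, SE 0.08, adjusted p = 0.172). PSMB7, one of the catalytic genes, had 199.05, 158.06 and 163.47 against 150.06, 158.33 and 153.93 FPKM (log2 fold change -0.16, 95% interval -0.41 to 0.08). PSMB6, the caspase-like subunit, had 43.54, 34.65 and 36.10 against 32.58, 35.54 and 33.78 FPKM (log2 fold change -0.16, interval -0.41 to 0.10). The groups overlapped in both. PSMB5, the chymotrypsin-like subunit that bortezomib binds, had 61.85, 47.02 and 49.76 FPKM in shNC and 65.29, 39.82 and 65.81 in shPQBP1 samples. Its knockdown samples were on both sides of the controls, with sample 2 the lowest of the 6, and its log2 fold change of 0.08 had an interval from -0.46 to 0.62. The sum over the alpha ring was 279.8 ± 21.2 and 270.7 ± 9.86 FPKM and that over the constitutive beta ring was 567.2 ± 69.7 and 516.7 ± 10.3.

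Some genes of the alpha ring are overlapped by a second gene model on the same strand. How reads were split between such models was not tested. PSMA2 had 26.16, 13.42 and 25.42 FPKM in shNC and 29.48, 30.39 and 25.73 in shPQBP1 samples, which gave the largest positive log2 fold change of the members (0.45, SE 0.27, adjusted p = 0.328). The low value was that of shNC sample 2 alone. ENSG00000256646, a protein-coding gene that GENCODE (release 44) places over the whole of PSMA2 on the same strand, was listed at 21.59 FPKM in shNC sample 2 and at 0.06 or less in the other 5 samples. The sum of both genes was 26.2, 35.0 and 25.5 FPKM in shNC and 29.5, 30.4 and 25.8 in shPQBP1 samples, so that the groups overlapped throughout. PSMA6 had 28.37, 17.74 and 22.96 against 21.72, 20.69 and 18.99 FPKM, and ENSG00000258790, which covers nearly all of it on the same strand, had 0.42 to 9.26 FPKM; the sum of both was 24.9 ± 4.71 and 25.8 ± 2.79.

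The inducible subunits were low and did not move alike. PSMB8 (LMP7), the counterpart of PSMB5, had 7.29, 5.93 and 5.47 FPKM in shNC and 7.99, 8.62 and 7.77 in shPQBP1 samples. All 3 knockdown samples were above the controls, and the log2 fold change was 0.39 (SE 0.12, unadjusted p = 0.0197, adjusted p = 0.141). PSMB9 (LMP2), the counterpart of PSMB6 and next to PSMB8 on chromosome 6, was below the filter, with 0.97, 0.81 and 0.66 against 1.08, 1.01 and 1.26 FPKM, again without overlap. PSMB10 (MECL1), the counterpart of PSMB7, had 6.27, 4.28 and 4.79 against 5.17, 4.34 and 4.55 FPKM (log2 fold change -0.11, interval -0.49 to 0.28). PSMB8 was at 11.0% to 12.6% of PSMB5 in the shNC samples and at 12.2%, 21.6% and 11.8% in the shPQBP1 samples, the high value being that of the sample with low PSMB5. PSMB9 was at 1.83% to 2.34% of PSMB6 in shNC and at 2.84% to 3.73% in shPQBP1 samples. Whether the counting used strand is not given in the sources used here, and PSMB8-AS1, an antisense RNA that overlaps both genes, was listed at 0.59, 0.51 and 0.47 FPKM in shNC and at 0.98, 0.71 and 0.74 in shPQBP1 samples. PSMB9 also overlaps PSMB8 by 544 bases and TAP1 by 8608 bases, both on the opposite strand.

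The activators held the largest difference. PSME3 (PA28 gamma), the nuclear activator that degrades proteins without ubiquitin, had 55.88, 52.64 and 54.43 FPKM in shNC and 40.35, 18.68 and 17.96 in shPQBP1 samples. The controls were close together, shPQBP1 samples 2 and 3 were the lowest, and shPQBP1 sample 1 lay between. The log2 fold change was -1.18 (SE 0.31, unadjusted p = 0.0081, adjusted p = 0.0996, limma), so the gene did not pass the adjustment. Without shPQBP1 sample 1 the log2 fold change was -1.56 (adjusted p = 0.0103). With each of the other 5 samples left out, the adjusted p was 0.152 to 0.269, and without shPQBP1 sample 3 the log2 fold change was -0.98. BECN1, an autophagy gene that overlaps the start of PSME3 on the opposite strand, had 12.71 to 13.76 FPKM in shNC and 12.39 to 13.47 in shPQBP1 samples. PSME1 and PSME2, the interferon-inducible PA28 subunits, were at 0.07 (interval -0.20 to 0.34) and -0.06 (interval -0.27 to 0.15) on the log2 scale. PSME4 was at 0.20 (10.51, 8.82 and 9.17 against 7.54, 8.61 and 8.62 FPKM, groups without overlap, adjusted p = 0.289) and PSMF1 at -0.10 (adjusted p = 0.475). The assembly chaperones were between -0.19 (PSMD9) and 0.11 (PSMD10), and none of the 6 tested was at an unadjusted p under 0.05, where 11.7% of all tested genes were lower and 11.9% higher.

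**Figure D3:**
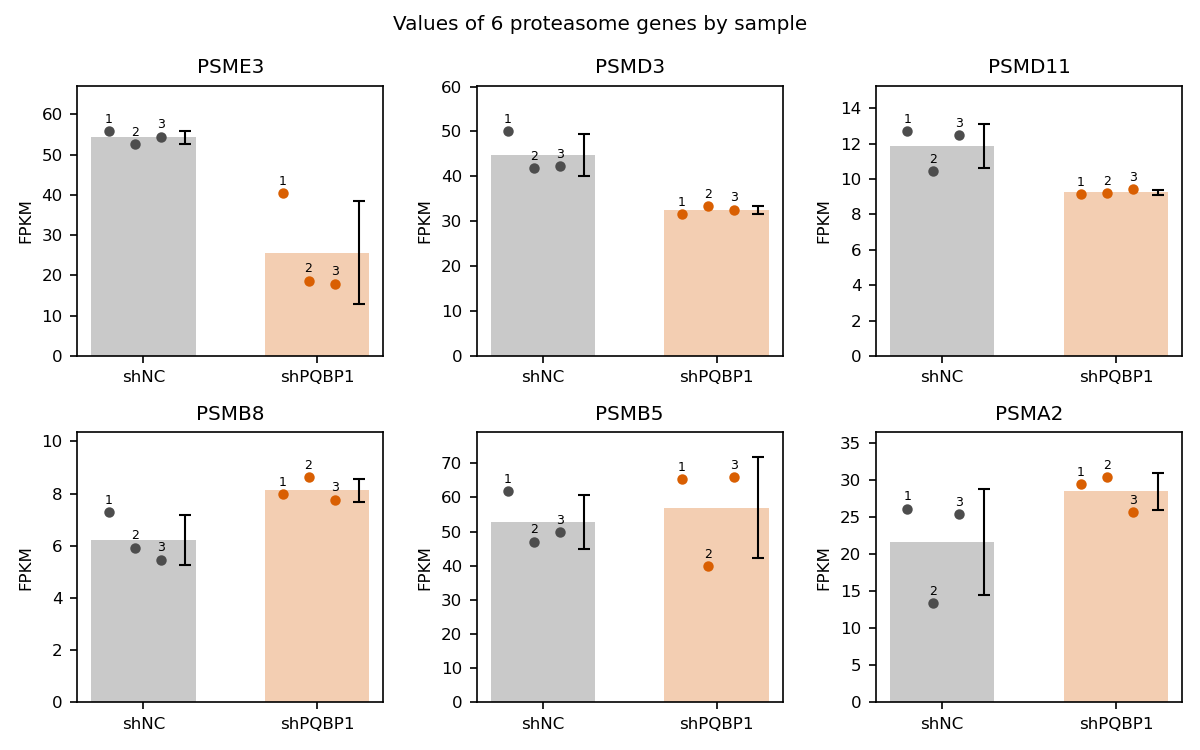
FPKM (vertical axes, from 0) of 6 proteasome genes in the 3 shNC and 3 shPQBP1 samples; points are samples with their numbers, bars are means and error lines are SDs. PSME3 is at 18.68 and 17.96 FPKM in 2 knockdown samples and at 40.35 in the other, PSMD3 and PSMD11 are lower and PSMB8 is higher in all 3, and 1 sample stands apart in PSMB5 (39.82) and PSMA2 (13.42).

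The members were also ordered by their position in the genome. Of the 44 tested members, 7 lie on chromosome 17 of hg38, namely PSMB6, PSMD11, PSMB3, PSMD3, PSME3, PSMC5 and PSMD12 from the short-arm end onward. All 7 were below 0, 4 of them (PSMD11, PSMD3, PSME3 and PSMC5) at an unadjusted p under 0.05, with a median log2 fold change of -0.31. The same held for the chromosome as a whole: of its 686 tested genes 79.4% were below 0, against 45.1% of the 10727 genes elsewhere, and its median was -0.22, against 0.04. Of the other genes on the chromosome, 33.4% were lower at an unadjusted p under 0.05. Relative to the mean of the shNC samples, the median of the chromosome's genes was 0.09, -0.04 and -0.02 in the shNC samples and -0.24, -0.18 and -0.21 in the shPQBP1 samples on the log2 scale, while the median of all other genes was between 0 and 0.06. The chromosome with the next lowest median was chromosome 22 (-0.15), which holds no member.

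The 37 tested members on other chromosomes had a median of -0.06, with 21 below 0. At an unadjusted p under 0.05, 3 of them (8.11%) were lower, against 10.3% of all genes on those chromosomes, and 1 (2.70%) was higher, against 12.5%. The 3 were PSMC1, PSMA5 and PSMD8. On chromosome 17, each member was set beside the tested genes that start within 5 Mb of it. The 139 neighbours of PSME3 had a median of -0.20, and 0% of them were as low as PSME3. The 138 neighbours of PSMD3 had a median of -0.22 and 16.7% were lower than it. PSMD11 had 19.4% of 72 neighbours below it and PSMC5 27.7% of 65, whereas PSMB6, PSMB3 and PSMD12 lay near the middle of theirs (58.1%, 52.1% and 44.2%). PSMC5 also overlaps FTSJ3, a ribosome biogenesis gene on the opposite strand, which fell by 0.48 on the log2 scale (adjusted p = 0.0356). What made the genes of the chromosome lower, and its part in the values of these members, was not tested.

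**Figure D4:**
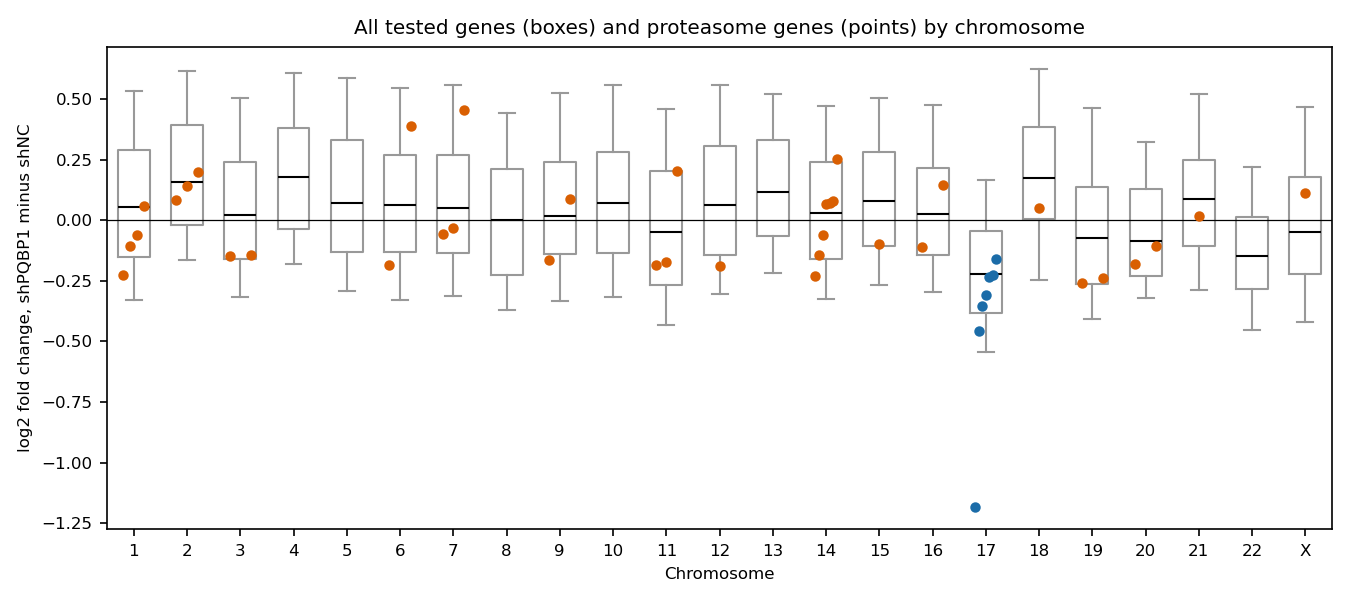
Log2 fold change (shPQBP1 minus shNC, vertical axis) of all tested genes by chromosome, with boxes for the quartiles, a line for the median and whiskers to the tenth and ninetieth percentile, and of the proteasome genes as points (blue on chromosome 17). The box of chromosome 17 lies below 0 with a median of -0.22, its 7 proteasome genes are all below 0, and PSME3 at -1.18 lies far under the whisker.

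The fold changes also went with GC content. Genes are no independent replicates of a condition and share the 6 libraries. Across them, Spearman's rho between the log2 fold change and the GC content of the transcript was -0.46 over 11385 tested genes and -0.37 over the 44 members. In the 22 members of lower GC content (36.4% to 47.9%), 12 were above 0 and 10 below, with a median of 0.03. In the 22 of higher GC content (48.4% to 61.7%), 4 were above 0 and 18 below, with a median of -0.16. When each sample was corrected for the GC content and the length of the transcripts, a step added after seeing the data, PSMD3 (-0.31, adjusted p = 0.0160), PSMD12 (-0.54, 0.0142), PSMC1 (-0.26, 0.0432), PSMC5 (-0.27, 0.0452) and PSMD11 (-0.40, 0.0478) were lower and PSMB8 (0.47, 0.0208) was higher at an adjusted p under 0.05 in limma, where 4.54% of all tested genes were lower and 4.30% higher. Of the lower members, PSMD3, PSMD12, PSMC5 and PSMD11 lie on chromosome 17. In this correction 109 of the 686 genes of that chromosome were lower at an adjusted p under 0.05. Elsewhere 1 of 37 members and 408 of 10699 genes were lower. With the replicate number as a block in the same correction, 0 members passed the adjustment in either direction, and 8 were lower and 1 was higher by unadjusted p. Only 0.0966% of all tested genes were higher and 0.0703% lower at an adjusted p under 0.05 there. A count of 0 among 44 members therefore says little about the members. By unadjusted p under 0.05 the shares of all tested genes were 9.94% higher and 11.5% lower. Without the block, at an unadjusted p under 0.05, 13 members (29.5%) were then lower, against 15.4% of all tested genes, and 5 of the 7 members on chromosome 17 were among them. By that limit 250 of the 686 genes of chromosome 17 were lower, and elsewhere 8 of 37 members and 1505 of 10699 genes were. PSME3 was at -1.20 (adjusted p = 0.0755).

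**Figure D5:**
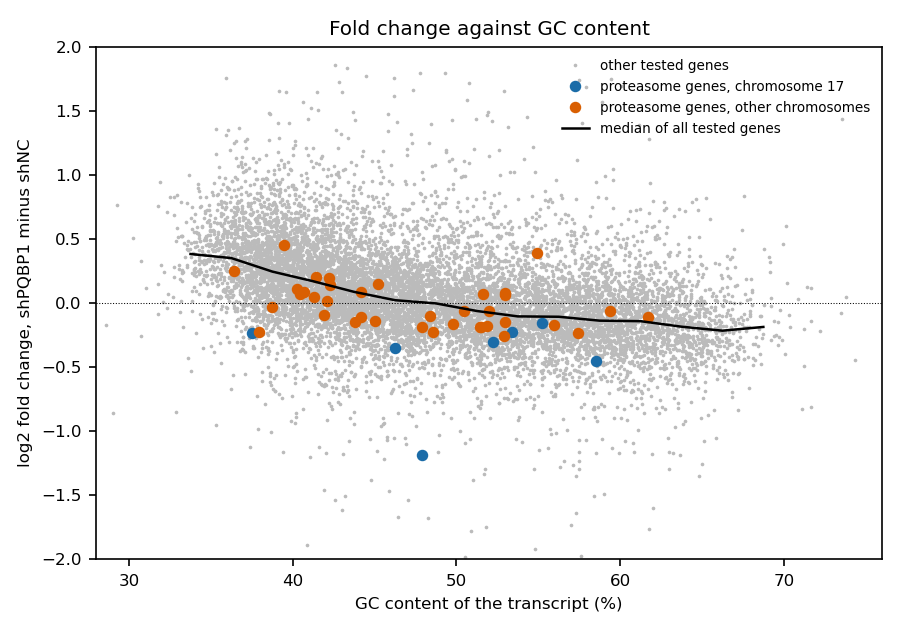
Log2 fold change (shPQBP1 minus shNC, vertical axis) against the GC content of each gene's transcript (horizontal axis, percent), with other tested genes in grey, proteasome genes on chromosome 17 in blue and on other chromosomes in orange, and the median of all tested genes in bins of 2.5% as a line; 39 genes outside the drawn range are not shown. The median line goes down from left to right, and most proteasome genes lie on or under it, with PSMB8 above.

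Genes that work with the proteasome were counted from 6 lists. Of 6 other subunits and assembly factors (ADRM1, SEM1, POMP, PAAF1, AKIRIN2 and ECPAS) and of 4 ubiquitin enzymes bound to the proteasome (UCHL5, USP14, UBE3C and UBE3A), 0 were at an unadjusted p under 0.05, with medians of -0.08 and 0.16. Of 14 shuttle and delivery factors, 3 were lower (BAG6, NPLOC4 and VCP) and 1 was higher (RAD23B) at an unadjusted p under 0.05, which is 21.4% and 7.14% against 11.7% and 11.9% of all tested genes, and 0 passed the adjustment. BAG6, a chaperone of the protein quality control of tail-anchored proteins, had 38.77, 36.99 and 30.78 FPKM in shNC and 26.54, 27.63 and 26.58 in shPQBP1 samples (log2 fold change -0.39, adjusted p = 0.0996). NPLOC4, a cofactor of the segregase VCP, had 17.14, 15.31 and 15.67 against 13.06, 13.80 and 12.18 FPKM (-0.30, adjusted p = 0.120) and lies, like the members above, on chromosome 17. In both the groups did not overlap.

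Of the 9 genes around NFE2L1, 2 (22.2%, against the 11.7%) were lower at an unadjusted p under 0.05 and 0 passed the adjustment. NFE2L1 itself, also on chromosome 17, had 58.34, 35.65 and 35.14 FPKM in shNC and 35.05, 38.16 and 37.61 in shPQBP1 samples, so that only shNC sample 1 differed from the rest (log2 fold change -0.18, adjusted p = 0.599). SYVN1, the ubiquitin ligase of the endoplasmic reticulum that keeps NFE2L1 low, had 3.43, 3.45 and 3.46 against 2.12, 2.46 and 3.05 FPKM (-0.44, adjusted p = 0.143), and VCP, which extracts NFE2L1 from the membrane, had 116.44, 100.16 and 101.29 against 87.59, 92.43 and 89.89 (-0.23, adjusted p = 0.161). Of 6 ubiquitin genes and activating enzymes, RPS27A was lower (-0.18, adjusted p = 0.185) at an unadjusted p under 0.05, 16.7% of the list against the same 11.7%.

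The interferon axis, of which 8 of 9 genes were tested, held the only listed gene past the adjustment. B2M, the light chain of MHC class I, rose from 130.24, 114.17 and 114.98 FPKM in shNC to 159.51, 163.95 and 174.28 in shPQBP1 samples (log2 fold change 0.47, SE 0.08, adjusted p = 0.0362). This call was lost in 11 of 16 alternatives, and with the correction for GC content and length the log2 fold change was 0.23 (adjusted p = 0.382). TAP1, a peptide transporter, was lower at an unadjusted p under 0.05, with 6.20, 5.25 and 5.08 against 3.66, 4.71 and 4.14 FPKM (-0.40, adjusted p = 0.147). This was opposite to PSMB8 and PSMB9. Its gene lies within the span of PSMB9 on the opposite strand. IRF1, the interferon-response factor, was also lower (-0.29, adjusted p = 0.187). The 2 lower genes were 25% and B2M alone was 12.5% of the 8 tested, against 11.7% and 11.9% of all tested genes.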

How the data were processed

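FPKM values were as deposited by the authors, who prepared poly(A) libraries, sequenced them in pairs and worked on hg38. The labels' processing notes name HISAT2 (version 2.2.0) for mapping, SAMtools (version 1.9) and StringTie (version 1.3.0). The annotation release is not given in the sources used here. The deposited table also holds the authors' fold, p-value and q-value columns from edgeR, which were not used. All 6 sample columns were used.

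Of the 32679 genes, 11413 averaged 1 FPKM or more and were tested on log2(FPKM + 0.1) in R (version 4.3.3) with the limma package (version 3.58.1; lmFit, eBayes with trend, two-sided, Benjamini-Hochberg over the tested genes). The low values showed no steps of whole reads, so depth is unknown and no counting interval is given. P-values rest on the spread within groups of 3. Positions, overlaps, transcript length and GC content came from GENCODE release 44, and promoters from RefSeq (GRCh38.p14). The steps were tested on simulated data.

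The members and lists were chosen with earlier results of these data known. Named were the 10 members with the largest fold change, the catalytic, inducible and activator genes, the highest and lowest of each sub-complex, those below the filter, and list genes at an adjusted p under 0.05 or, up to 2 per list, with the largest fold change at an unadjusted p under 0.05. Members at an unadjusted p under 0.05 and other genes were named after their values were seen. Some listed genes were not analysed here or are not reported here. Alternatives were other scalings, filters and pseudocounts, no trend, a replicate block and each sample left out. After seeing the data, a correction was added for the GC content and length of transcripts (natural splines, 5 degrees of freedom each).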

Additional observations from a re-analysis of the deposited data

How the results depend on the processing

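The counts of 0 members past the adjustment, higher or lower, held under median-of-ratios scaling, all genes above 0, both pseudocounts, no trend and the replicate block. With quantile normalization, and with a mean FPKM of at least 10, 1 member (PSMD3) was lower at an adjusted p under 0.05 and 0 members were higher at an unadjusted p under 0.05 (PSMB8 was not among the genes kept at 10). The shares of all tested genes were 1.80% and 2.65% for the first of these limits and 10.2% and 11.3% for the second. With each sample left out in turn, 0 to 1 members were higher and 0 to 2 lower at an adjusted p under 0.05, 0 to 2 were higher and 3 to 8 were lower by unadjusted p, 0 to 1 passed a fold change over 2, and the median log2 fold change ran from -0.152 to -0.056. In these fits 0.149% to 2.58% of all tested genes were higher and 0.114% to 1.49% lower at an adjusted p under 0.05. By unadjusted p the shares were 7.62% to 14.3% higher and 7.59% to 11.5% lower. Without shNC replicate 1, PSMD3 and PSMD12 were lower and PSMB8 higher at an adjusted p under 0.05. Without shPQBP1 replicate 1, PSME3 was lower, and 4 members were lower at an unadjusted p under 0.05. Without shPQBP1 replicate 3, that count was 3 and no member passed a fold change over 2, against 1. Without shNC replicate 2 or 3, or shPQBP1 replicate 2, PSMB8 was not at an unadjusted p under 0.05. The correction for GC content and length, chosen after seeing the data, gave 1 member higher and 5 lower at an adjusted p under 0.05 and 13 lower at an unadjusted p under 0.05, where 4.54% and 15.4% of all tested genes were lower. Of the 5, 4 lie on chromosome 17, where 109 of 686 genes were lower at an adjusted p under 0.05. With the block, the same correction gave 0 members higher and 0 lower at an adjusted p under 0.05 (0.0966% and 0.0703% of all tested genes) and 8 lower by unadjusted p (11.5% of all tested genes). PSMC6 was at -0.031 in both. B2M passed the adjustment in 5 of 16 alternatives, and PSME3 in 1 of 16. The cause of these shifts was not tested.

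With the replicate number as a block, 3 members were lower at an unadjusted p under 0.05 and PQBP1 had a log2 fold change of -2.04 with an adjusted p of 0.0686 (replicate block). No gene of the 11413 passed the adjustment there in limma, and at an unadjusted p under 0.05 the shares were 8.48% (higher) and 7.64% (lower). The deviations of same-numbered samples had correlations of -0.186, -0.138 and -0.011. Whether same-numbered samples shared a culture or a preparation was not tested.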

Other observations

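Among the 18 PSM pseudogenes in the table, 2 had a mean of at least 1 FPKM. PSMC1P1 had 4.67, 5.75 and 4.31 FPKM in shNC and 5.72, 4.97 and 5.72 in shPQBP1 samples, while its parent PSMC1 was lower in all 3 knockdown samples. PSMA6P1, which is placed on chromosome Y, had 4.54, 4.15 and 3.43 against 3.81, 3.54 and 3.46 FPKM in this ovarian cancer line. Whether these values come from reads of PSMA6 was not tested. How reads were split between the parents and these copies is not given in the sources used here, so the values of PSMC1 and PSMA6 are uncertain to that extent. PSMA3-AS1, an antisense RNA over PSMA3, had 2.06, 4.33 and 3.31 against 3.67, 3.26 and 3.57 FPKM, and shNC sample 1 was the lowest in both genes (16.55 FPKM for PSMA3, against 19.74 to 24.37).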
